A study of Danio rerio with 12 samples.

Results

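Antigen presentation and immunoproteasome genes were described on arrays of zebrafish (Danio rerio) embryos through 5 genes, b2m, PSMB8, PSME1, PSME2 and cd40, each found by its Ensembl gene identifier in the deposited value table. Each gene had 1 row, so these were 5 of 5134 rows, and all 5 had a value on all 12 arrays. They had been selected on their log2 differences of morphants from controls on these same arrays, so their levels and differences are a description and carry no test. RNA came from embryos of the rx3:GFP line, a reporter strain named for the eye field gene rx3, kept at 25 °C, whose stage the labels give as 18 somites in one place and 18 hours after fertilisation in another. The first group, sema6A morphants, received at the 1-cell stage an antisense morpholino, an oligonucleotide that blocks translation or splicing of its target, against the transmembrane ligand Semaphorin6A. The second, plexinA2 morphants, received one against its receptor PlexinA2, and the third, the control, is labelled wild-type with no injection named for it. The titles of the control arrays read UIC, which the labels do not spell out. With no injection named for the control, injection itself and the blocking of the target cannot be told apart in differences from control. The reporter strain was common to all 3 groups. Each group had 4 arrays, called biological replicates in the labels, and no label says that they came from separate clutches, so any p value measures only the spread between these arrays. The levels of the 2 targeted genes were not analysed here.

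B2m, PSMB8, PSME1 and PSME2 belong to the machinery that shows fragments of a cell's own proteins to T cells, and cd40 encodes a receptor through which T cells signal back to the presenting cell. The proteasome cuts proteins into peptides, transporters carry the peptides into the endoplasmic reticulum, and class I molecules of the major histocompatibility complex (MHC) take them to the cell surface. Interferon signalling is known to raise this machinery in vertebrates and to exchange catalytic subunits of the standard proteasome for those of the immunoproteasome. At the somite stages a zebrafish embryo has primitive macrophages and no mature T cells.

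All values below are the authors' RMA values on the log2 scale (RMA is a method that corrects background, normalises arrays to each other and summarises probes). Probes differ in how strongly they bind, so the level of one gene was not set against that of another. In RNA of whole embryos, fewer cells that carry a transcript and less of that transcript per cell cannot be told apart.

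B2m, cd40, PSME2 and PSMB8 had one order of group means, highest in plexinA2 morphants, intermediate in sema6A morphants and lowest in controls. PSME1 had another, with its highest mean in sema6A morphants. Every mean of a morphant group lay above that of the control, by 0.43 to 2.84 on the log2 scale in plexinA2 morphants and by 0.52 to 1.57 in sema6A morphants. The plot of the values by array shows how far the groups overlapped.

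**Figure D1:**
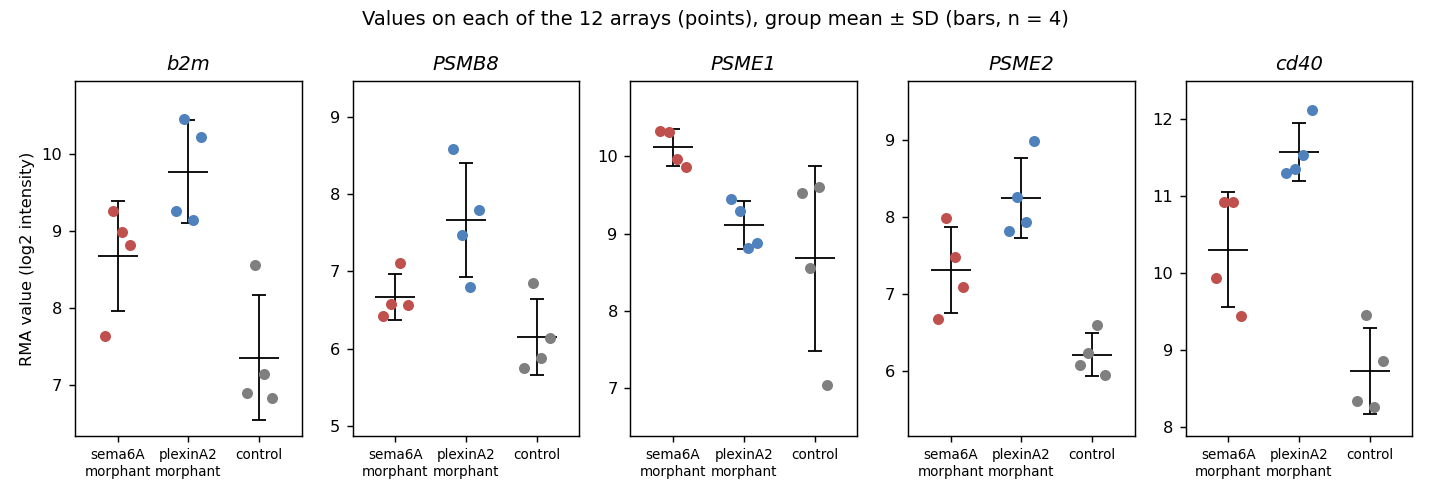
Log2 RMA values of the 5 genes (vertical axis, 1 panel per gene, each panel with its own range of equal height) on the 4 arrays of sema6A morphants (red), plexinA2 morphants (blue) and controls (grey), with the group mean and SD as bars. In plexinA2 morphants all 4 arrays of b2m, PSME2 and cd40 sit above all 4 controls, while PSME1 has its highest 4 arrays in sema6A morphants and 1 control array at 7.03, far below the rest.

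B2m (ENSDARG00000053136) encodes beta-2 microglobulin, the light chain that class I molecules need to fold and reach the cell surface. Its log2 values were 7.65, 9.26, 8.99 and 8.82 in sema6A morphants, 9.27, 10.45, 9.15 and 10.23 in plexinA2 morphants, and 6.90, 8.56, 7.14 and 6.84 in controls. The plexinA2 arrays all lay above the controls, with a gap of 0.58 between the nearest arrays. The sema6A arrays overlapped the controls through sema6A replicate 1 and control replicate 2, and the plexinA2 arrays through sema6A replicate 2 and plexinA2 replicate 3. Means were 8.68 ± 0.71 in sema6A morphants, 9.77 ± 0.66 in plexinA2 morphants and 7.36 ± 0.81 in controls (SD, n = 4 each). The plexinA2 mean was 5.32-fold that of the control, a log2 difference of 2.41 ± 0.43 (moderated SE of limma, a linear model that shares information on the spread between rows). The sema6A mean was 2.49-fold the control's, a log2 difference of 1.32 ± 0.43, and 2.06 without control replicate 2 and sema6A replicate 1, the 2 arrays least like the others over all rows.

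Cd40 (ENSDARG00000054968) encodes a receptor of the tumour necrosis factor receptor family, through which T cells activate B cells and other antigen presenting cells. Its values were 9.93, 10.92, 10.92 and 9.44 in sema6A morphants, 11.30, 11.35, 11.52 and 12.11 in plexinA2 morphants, and 8.34, 9.46, 8.26 and 8.86 in controls. The plexinA2 arrays formed the highest 4 of all 12, above both other groups. In sema6A morphants 3 of 4 arrays lay above every control, and replicate 4 (9.44) fell just below control replicate 2 (9.46). Means were 10.30 ± 0.74 in sema6A morphants, 11.57 ± 0.37 in plexinA2 morphants and 8.73 ± 0.55 in controls. The difference from control was 2.84 ± 0.37 in plexinA2 morphants, or 7.18-fold, the widest of the 5 genes. It was 1.57 ± 0.37 in sema6A morphants, or 2.98-fold.

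PSME2 (ENSDARG00000033144) and PSME1 (ENSDARG00000002165) encode the beta and alpha subunits of PA28, a ring that caps the proteasome core and opens its gate. In mammals both subunits are induced by interferon gamma and assemble into 1 mixed ring. PSME2 had 6.67, 7.98, 7.48 and 7.09 in sema6A morphants, 7.81, 8.26, 7.94 and 8.98 in plexinA2 morphants, and 6.07, 6.24, 6.59 and 5.94 in controls. Both morphant groups lay wholly above the controls, by a gap of 1.21 in plexinA2 morphants and of 0.08 in sema6A morphants, and they overlapped each other through sema6A replicate 2 and plexinA2 replicates 1 and 3. Means were 7.31 ± 0.56 in sema6A morphants, 8.24 ± 0.52 in plexinA2 morphants and 6.21 ± 0.28 in controls. The differences from control were 2.03 ± 0.33 in plexinA2 morphants and 1.09 ± 0.33 in sema6A morphants.

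PSME1 had another order of group means than its partner, though both were higher than control in sema6A morphants. Its values were 10.32, 10.32, 9.97 and 9.86 in sema6A morphants, 9.45, 9.29, 8.82 and 8.88 in plexinA2 morphants, and 9.52, 8.55, 9.60 and 7.03 in controls. The sema6A arrays lay above all arrays of both other groups, and the plexinA2 arrays fell within the control range. Means were 10.12 ± 0.24 in sema6A morphants, 9.11 ± 0.31 in plexinA2 morphants and 8.68 ± 1.196 in controls, whose spread was the widest of any group among the 5 genes. The difference from control was 1.44 ± 0.43 in sema6A morphants and 0.43 ± 0.43 in plexinA2 morphants. Control replicate 4 weighed on both: without it they were 0.89 and −0.12.

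The 2 PA28 subunits were also compared within each array, a comparison chosen after the values were seen. The log2 value of PSME1 minus that of PSME2 was 2.81 ± 0.59 in sema6A morphants (2.34 to 3.65), 0.86 ± 0.72 in plexinA2 morphants (−0.09 to 1.64) and 2.47 ± 1.03 in controls (1.09 to 3.45; SD, n = 4 each). The size of such a difference has no meaning across probes, and its change between groups only describes how unequally the 2 rows changed on these arrays. All 4 sema6A arrays lay above all 4 plexinA2 arrays, and the controls overlapped both groups. The share of row pairs that separate in this way was not counted, so nothing is read from it. Of single rows, sema6A arrays lay wholly above plexinA2 arrays for 10.8 percent and wholly below for 12.9 percent.

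PSMB8 (ENSDARG00000001303) encodes the immunoproteasome subunit that takes the place of the chymotrypsin-like subunit of the standard core. It had 6.42, 6.58, 7.11 and 6.56 in sema6A morphants, 8.59, 7.48, 6.80 and 7.80 in plexinA2 morphants, and 5.75, 6.85, 5.87 and 6.13 in controls. In plexinA2 morphants 3 of 4 arrays were above every control, while replicate 3 (6.80) lay just under control replicate 2 (6.85). The sema6A arrays overlapped both other groups. Means were 6.67 ± 0.30 in sema6A morphants, 7.67 ± 0.74 in plexinA2 morphants and 6.15 ± 0.49 in controls, with differences from control of 1.52 ± 0.36 in plexinA2 morphants and 0.52 ± 0.36 in sema6A morphants. PSMB8 and PSME2 were among the dimmest 25 percent of rows, where RMA compresses differences. With 100 added to the linear values before the log, the plexinA2 difference was 0.84 for PSMB8 and 1.22 for PSME2, and the sema6A difference of PSME2 was 0.58. Adding a constant shrinks such differences by arithmetic, most of all in dim rows, so this fall was built in.

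**Figure D2:**
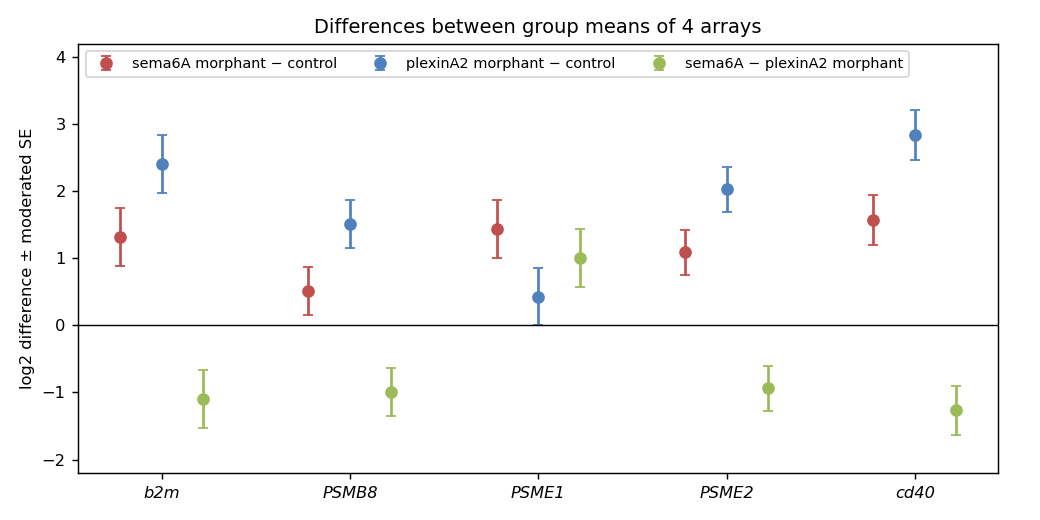
Log2 differences between group means (vertical axis) of the 5 genes for sema6A morphants minus control (red), plexinA2 morphants minus control (blue) and sema6A minus plexinA2 morphants (green), with moderated SE as bars. B2m, PSMB8, PSME2 and cd40 are below 0 in the direct comparison of the morphants, by 0.94 to 1.27, and PSME1 is above 0, at 1.01.

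Read together, 4 of the 5 genes passed the limma test (adjusted p under 0.05 over all rows) as higher in plexinA2 morphants, and 1, cd40, in sema6A morphants. Over all rows 2.61 percent passed as higher in plexinA2 morphants and 1.99 percent in sema6A morphants, of 2.86 and 3.12 percent that passed in either direction. Nothing is read from these counts, because the same contrasts had served to choose the genes. For the same reason the 3 genes whose plexinA2 arrays lay wholly above the controls, and the 2 in sema6A morphants, stand only beside the 7.27 and 7.11 percent of all rows for which this held. The median difference of the 5 genes was 2.03 in plexinA2 morphants and 1.32 in sema6A morphants, beside 0.04 and 0.06 over all rows. Both comparisons use the same 4 control arrays, so likeness between them is in part built in. The fits without 1 array reuse arrays on which the genes were selected, so a call that held in them gives no support. Of the calls, those of b2m, PSME2 and cd40 in plexinA2 morphants held in every fit without 1 array. That of PSMB8 was lost without control replicate 1 or 3 or plexinA2 replicate 1, 2 or 4, and that of cd40 in sema6A morphants was lost when either of sema6A replicates 2 and 3, or of control replicates 1 and 3, was left out.

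Set directly against each other, sema6A morphants were lower than plexinA2 morphants by 1.27 ± 0.37 for cd40, 1.09 ± 0.43 for b2m, 1.00 ± 0.36 for PSMB8 and 0.94 ± 0.33 for PSME2. They were higher by 1.01 ± 0.43 for PSME1. Arrays of the 2 morphants did not overlap for cd40, as for 12.9 percent of all rows in that direction, nor for PSME1, as for 10.8 percent, and overlapped for the other 3. None of the 5 passed the test over all rows, where 1.71 percent of rows passed, 0.448 percent as higher and 1.27 percent as lower (23 and 65 rows, and 68 and 90 after quantile normalisation). Cd40 and PSME1 passed when only the morphant groups were fitted, and all 5 passed with array weights. Those 2 fits passed 743 and 2273 of all 5134 rows, so nothing is read from these passes. Cd40 also passed without control replicate 2, an array that is in neither morphant group and enters through the shared estimate of spread. That fit passed 495 rows.

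Single arrays moved several of the genes together. Averaged over b2m, PSMB8, PSME2 and cd40, the deviation from each gene's mean over 12 arrays was −0.55, 0.46, 0.40 and −0.24 in sema6A morphants, 1.02, 1.16, 0.63 and 1.56 in plexinA2 morphants, and −1.46, −0.45, −1.25 and −1.28 in controls. PlexinA2 replicate 4 was thus the highest array, and control replicate 2 the highest control, close to sema6A replicate 1. PSME1, whose order of means differed, was left out of this average. With PSME1 included, control replicate 2 was at −0.51 and sema6A replicate 1 at −0.24. Control replicate 2 had the highest control value of b2m, PSMB8 and cd40. Sema6A replicate 1 had the lowest value of its group for b2m, PSMB8 and PSME2, yet the highest for PSME1. These 2 arrays also had the lowest mean rank correlation with the other 11 arrays over all rows, 0.835 and 0.876, against 0.907 to 0.932 for the rest.

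**Figure D3:**
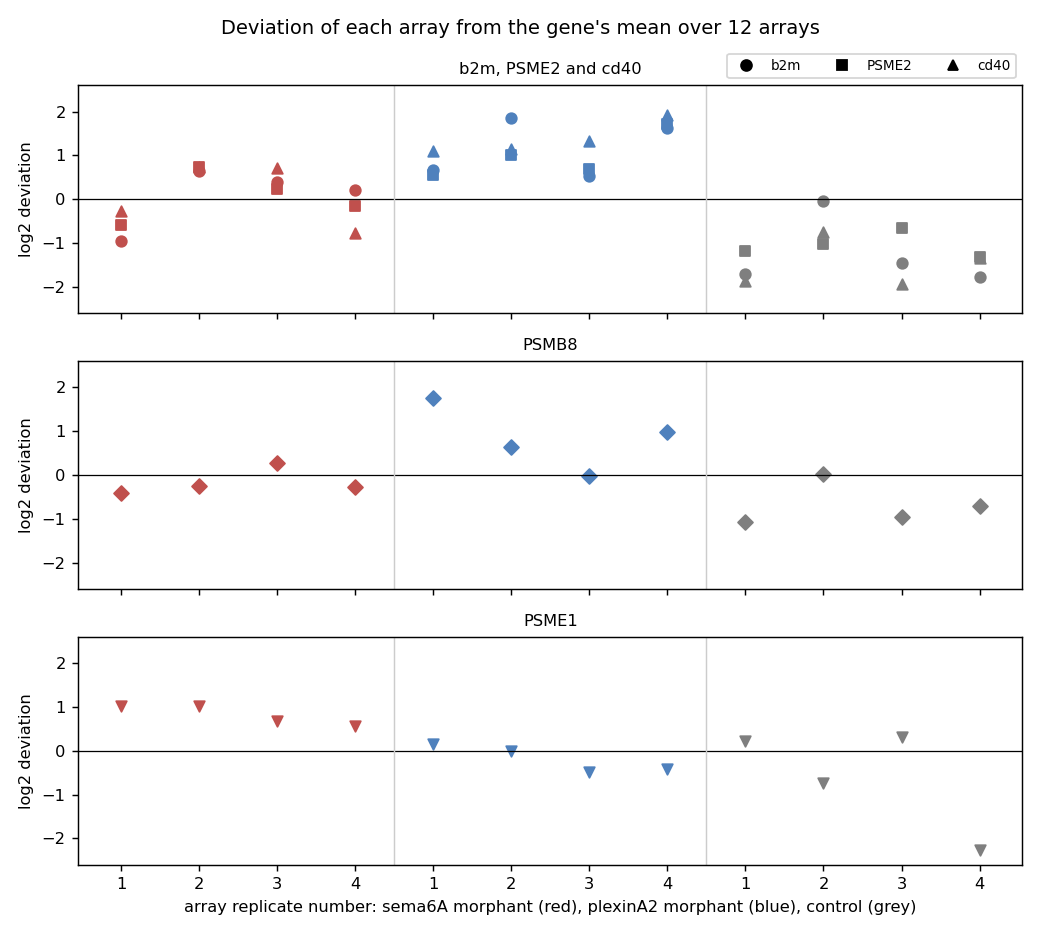
Deviation of each array from the gene's mean over the 12 arrays (vertical axis, log2) by array (horizontal axis, replicate numbers within sema6A morphants in red, plexinA2 morphants in blue and controls in grey). In the upper panel b2m, PSME2 and cd40 are above 0 on every plexinA2 array and below 0 on every control, in the middle panel PSMB8 is near 0 on plexinA2 replicate 3 and control replicate 2, and in the lower panel PSME1 is above 0 on every sema6A array and lowest on control replicate 4.

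Likeness of profiles was measured as the root mean square difference between log2 values over the 12 arrays, each gene first centred on its mean. Profiles were not scaled, so genes with a like pattern but changes of unlike size can lie far apart. Among all rows the one nearest to b2m was PSME2, at 0.51, while cd40 was the 5th nearest, at 0.57. PSME2 and cd40 differed by 0.55, and cd40 was the 28th nearest row to PSME2. PSMB8 lay farther off, at 0.66 from PSME2, 0.74 from b2m and 0.78 from cd40. It was the 34th nearest row to b2m. Among the rows nearest to PSMB8, PSME2 was the 245th and cd40 the 958th. PSME1 lay 1.096 to 1.434 from each of the other 4, with ranks of 3190 to 4829 in these pairs. After PSME2, the named rows nearest to b2m were ACOD1 (0.53), whose product makes itaconate in activated macrophages, and lygl1 (0.53), a lysozyme-like gene. Nearest to PSME2 were si:dkey-97i18.5 (0.38), the smooth muscle myosin gene MYH11 (0.39) and MMP9 (0.41), which encodes a matrix metalloproteinase. Nearest to PSMB8 were a row with only a clone-based name (0.38), cd74a (0.42), which encodes the invariant chain of MHC class II, and the fibril-associated collagen gene COL14A1 (0.44). Nearest to PSME1 were gsto2 (0.40), a glutathione S-transferase gene, and si:ch211-153b23.5 (0.45), and nearest to cd40 were SLC35F1 (0.40), dcdc2b (0.51) and the retinal gene rd3 (0.52). These distances describe the 12 arrays only. The differences on which the 5 genes were selected enter the profiles, so closeness among the 5 is in part built in and carries no test.

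The rest of the pathway was covered by 7 lists, which gave 37 further measured rows. In plexinA2 morphants 4 of the 37 rose, 0 fell and 33 did not pass (limma adjusted p over all rows). Of all rows 2.61 percent passed there as higher and 0.253 percent as lower. The median difference of the 37 was 0.18, beside 0.04 over all rows. In sema6A morphants 1 of the 37 rose, 1 fell and 35 did not pass. Of all rows 1.99 percent passed there as higher and 1.13 percent as lower. The median difference of the 37 was 0.40, beside 0.06 over all rows. The plexinA2 arrays lay wholly above the controls for 10 of the 37 rows, beside 7.27 percent of all rows. The sema6A arrays did so for 4 of the 37, beside 7.11 percent. The lists were drawn up with earlier results of these arrays known, so their counts are a description. The plot of these genes shows both differences for 36 of them.

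Of the proteasome itself few subunits were measured. In the core, PSMB2 (ENSDARG00000031511), which encodes a non-catalytic beta subunit, fell in sema6A morphants. Its values were 10.31, 11.53, 11.47 and 11.58 in sema6A morphants, 13.70, 13.25, 13.22 and 13.30 in plexinA2 morphants, and 13.84, 13.60, 13.62 and 13.38 in controls. The sema6A arrays lay more than 1 log2 unit below every other array, and the other groups overlapped. The difference of sema6A morphants from control was −2.39 ± 0.31 (adjusted p = 0.000145) and from plexinA2 morphants −2.15 ± 0.31 (adjusted p = 0.00234), and both calls held without any 1 array. In plexinA2 morphants PSMB2 differed from control by −0.24 ± 0.31 (adjusted p = 0.730). The alpha subunit genes PSMA4 (0.33 and −0.53) and PSMA5 (0.37 and −0.36) did not pass in sema6A or plexinA2 morphants.

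Among immunoproteasome and activator genes, PSMB9, which encodes another interferon-induced catalytic subunit, differed from control by 0.24 ± 0.29 in sema6A morphants (adjusted p = 0.689) and 0.68 ± 0.29 in plexinA2 morphants (adjusted p = 0.237). PSMB9 arrays of plexinA2 morphants (6.55 to 6.89) overlapped the controls through control replicate 2 (6.71), the array on which PSMB8 also stood high. PSME3 encodes PA28 gamma, the nuclear relative of the PA28 subunits. It differed by 0.56 ± 0.28 in sema6A morphants (adjusted p = 0.258) and −0.17 ± 0.28 in plexinA2 morphants (adjusted p = 0.795). The regulatory particle and assembly genes psmc1b, PSMD3 and PSMG2 had differences of 0.18 to 0.52 in sema6A morphants and −0.64 to −0.06 in plexinA2 morphants, and 0 of 3 passed in either.

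In the class I and peptide loading list, 0 of 7 passed in plexinA2 morphants, beside 2.86 percent of all rows. In sema6A morphants 1 of 7 rose, beside 1.99 percent of all rows. The gene that rose was tap2t (ENSDARG00000033446), of the transporter family that carries peptides into the endoplasmic reticulum. It had 8.95, 8.86, 9.11 and 8.67 in sema6A morphants, 7.83, 7.99, 8.31 and 8.54 in plexinA2 morphants, and 7.06, 7.89, 6.80 and 7.01 in controls. The sema6A arrays lay above all others, and the plexinA2 arrays above the controls except control replicate 2. The difference from control was 1.71 ± 0.30 in sema6A morphants (adjusted p = 0.00291), which held without any 1 array. It was 0.97 ± 0.30 in plexinA2 morphants (adjusted p = 0.0912). The plexinA2 difference passed in 1 of the 12 fits without 1 array, that without control replicate 2 (adjusted p = 0.0129). The largest adjusted p of these fits was 0.284. Sema6A morphants exceeded plexinA2 morphants by 0.73 ± 0.30 (adjusted p = 0.133), so the groups were not shown to differ.

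Its relative tap2a differed from control by 0.45 ± 0.30 in sema6A morphants (adjusted p = 0.426) and 0.88 ± 0.30 in plexinA2 morphants (adjusted p = 0.141), whose 4 arrays lay above the controls. The beta-2 microglobulin-like gene b2ml differed by 0.53 ± 0.44 and 0.70 ± 0.44, on a wide spread in sema6A morphants (6.90 to 9.37). The class I heavy chain gene mhc1zja had −0.09 ± 0.30 in sema6A morphants and −0.36 ± 0.30 in plexinA2 morphants (adjusted p = 0.904 and 0.575). The loading and trimming genes CALR (0.43 and 0.36), ERAP1 (0.43 and 0.11) and tapbpl (0.04 and 0.45) did not pass in sema6A or plexinA2 morphants.

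None of the 5 class II and lysosomal genes passed in either morphant. The largest differences were in plexinA2 morphants, for ciita, the master regulator of class II genes (1.03 ± 0.29, adjusted p = 0.0652), and cd74a (1.06 ± 0.32, adjusted p = 0.0871), and in both genes the plexinA2 arrays lay above all controls. In sema6A morphants they were 0.57 ± 0.29 for ciita (adjusted p = 0.275) and 0.56 ± 0.32 for cd74a (adjusted p = 0.326). The second invariant chain gene, cd74b, had −0.14 in sema6A morphants and −0.54 in plexinA2 morphants.

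**Figure D4:**
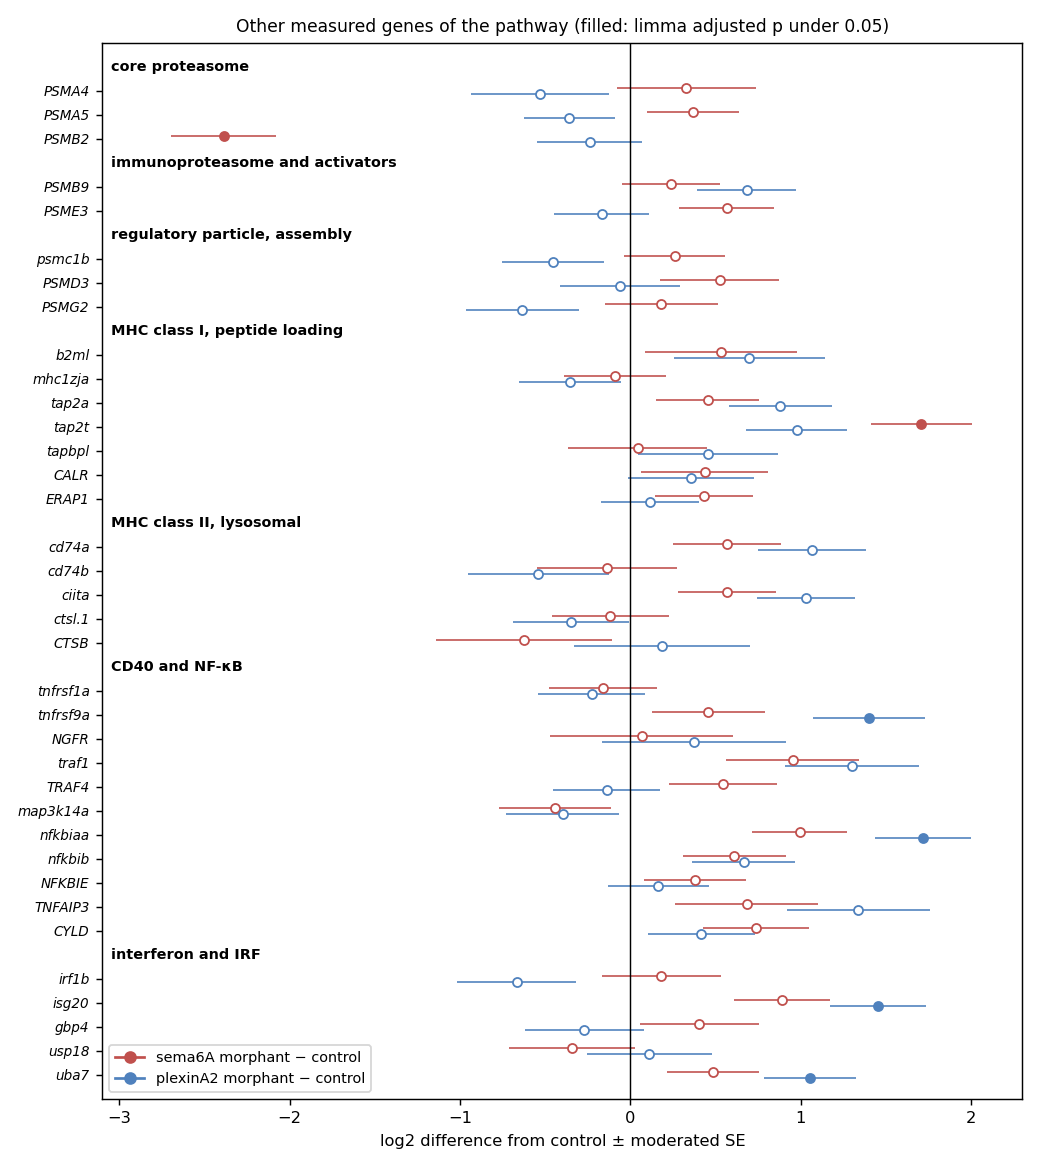
Log2 differences from control (horizontal axis, with moderated SE) of 36 of the 37 further pathway rows in sema6A morphants (red) and plexinA2 morphants (blue), by list, with filled points for limma adjusted p under 0.05. Filled points are PSMB2 at −2.39 and tap2t at 1.71 in sema6A morphants, and tnfrsf9a, nfkbiaa, isg20 and uba7 at 1.05 to 1.72 in plexinA2 morphants.

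Cd40 signals through TRAF adaptor proteins to the transcription factor NF-κB. Of 11 other genes of that list, 0 passed in sema6A morphants, beside 3.12 percent of all rows. In plexinA2 morphants 2 rose, beside 2.61 percent of all rows. One was nfkbiaa, an inhibitor of NF-κB that NF-κB itself induces, with values of 11.37, 11.63, 11.32 and 10.92 in sema6A morphants, 11.96, 11.95, 12.20 and 12.02 in plexinA2 morphants, and 10.66, 9.90, 10.65 and 10.07 in controls. No 2 of these 3 ranges overlapped, and the means had the order seen for cd40. Ranges lay wholly above the controls for 7.27 percent of all rows in plexinA2 morphants and 7.11 percent in sema6A morphants. The sema6A arrays lay wholly below the plexinA2 arrays for 12.9 percent of rows. Sema6A minus plexinA2 morphants, nfkbiaa differed by −0.72 ± 0.28 (limma adjusted p = 0.121), which did not pass. The difference from control was 1.72 ± 0.28 in plexinA2 morphants (adjusted p = 0.00106) and 0.99 ± 0.28 in sema6A morphants (adjusted p = 0.0584). The sema6A difference passed in 1 of the 12 fits without 1 array, that without sema6A replicate 4 (adjusted p = 0.0404). The largest adjusted p of these fits was 0.174. The other was tnfrsf9a, a receptor gene of the same family as cd40, at 1.40 ± 0.33 in plexinA2 morphants (adjusted p = 0.0235). Its call was lost without control replicate 1 or 3 or plexinA2 replicate 2 or 4 (largest adjusted p = 0.102).

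The adaptor gene traf1 had 1.30 ± 0.39 in plexinA2 morphants (adjusted p = 0.0902) and 0.95 ± 0.39 in sema6A morphants (adjusted p = 0.174). TNFAIP3, which encodes the NF-κB restraining enzyme A20, had 1.34 ± 0.42 (adjusted p = 0.103) and 0.68 ± 0.42 (adjusted p = 0.381) in plexinA2 and sema6A morphants. In both genes the plexinA2 arrays lay above all controls. The kinase gene map3k14a, of the noncanonical NF-κB route, had −0.40 in plexinA2 and −0.44 in sema6A morphants, and TRAF4 −0.14 and 0.54.

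Of 6 interferon pathway genes, 0 passed in sema6A morphants, beside 3.12 percent of all rows. In plexinA2 morphants 2 rose, beside 2.61 percent of all rows. The exonuclease gene isg20 had 1.45 ± 0.28 (adjusted p = 0.00568), and uba7, whose product charges the ubiquitin-like protein ISG15, had 1.05 ± 0.27 (adjusted p = 0.0406). The uba7 call was lost in 8 of the 12 fits without 1 array (any plexinA2 array, either of sema6A replicates 2 and 3, or of control replicates 1 and 2; largest adjusted p = 0.139). It was also lost with only the compared groups (adjusted p = 0.0715), quantile normalisation (0.0836) and a pseudocount of 100 (0.112). The regulator irf1b had −0.67 ± 0.35 in plexinA2 morphants (adjusted p = 0.342) and 0.18 ± 0.35 in sema6A morphants.

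Markers of white blood cells and of the p53 response were set beside these values. Of 11 measured leukocyte marker rows, 0 passed in sema6A morphants, beside 3.12 percent of all rows. In plexinA2 morphants 1, MMP9, rose (1.39 ± 0.30, limma adjusted p = 0.0115), beside 2.61 percent of all rows. The median differences were 0.05 and 0.17, beside 0.06 and 0.04 over all rows. The summed linear intensity of the 11 rows was 6831 to 9303 in sema6A morphants, 6992 to 9246 in plexinA2 morphants and 5880 to 10035 in controls. These ranges overlapped throughout, and no value was at 0. Sums of this kind add rows whose probes bind unequally, so bright rows weigh most. The brightest leukocyte marker row was CEBPA, with mean log2 values of 12.05 in sema6A morphants, 11.88 in plexinA2 morphants and 11.99 in controls. Nothing on the number of white blood cells is read from the sums. The plexinA2 arrays lay wholly above the controls for 3 of the 11, MMP9, tnfb (0.79) and NCF1 (0.53), beside 7.27 percent of all rows, and the sema6A arrays for 0 of the 11. The other differences in plexinA2 morphants ran from −0.62 for RAG1 to 0.81 for CSF3R, with SPI1 at 0.11, lyz at 0.21 and CORO1A at −0.16. Sema6A replicate 1 had the lowest value of its group for NCF1 (7.01), CORO1A (6.165), CSF3R (6.36), cxcr3.2 (6.04), MMP9, RAG1 and RAG2. It had the highest for CEBPA and tnfb, with SPI1 and lyz in between. The other sema6A arrays of NCF1 (9.68 to 10.18) lay above the controls (9.03 to 9.38). The same array was the lowest of its group for b2m, PSMB8 and PSME2. The part of leukocyte genes in the differences of the 5 genes was not tested. Of 23 rows of the p53 response, 10 rose in sema6A morphants and 12 in plexinA2 morphants, with 0 lower in either. Over all rows 1.99 and 2.61 percent passed as higher, and 1.13 and 0.253 percent as lower. The summed intensity of the 23 rows was 172860 to 209706 in sema6A morphants, 193408 to 214965 in plexinA2 morphants and 77625 to 117214 in controls. Their median difference was 0.96 in sema6A morphants, 1.17 in plexinA2 morphants and −0.14 in sema6A minus plexinA2 morphants. Over all rows these medians were 0.06, 0.04 and 0.004. The part of these genes in the differences of the 5 genes was not tested.

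Markers of embryonic tissues were measured in 16 rows, with no value at 0. Among them rx3 averaged 10.49 ± 1.31 in sema6A morphants, 11.62 ± 0.26 in plexinA2 morphants and 11.02 ± 1.51 in controls. Control replicates 1 and 3 had rx3 at 11.76 and 12.66, and replicates 2 and 4 at 10.44 and 9.20. Some other rows split the controls this way, among them tbx16 and GATA2. Others did not, among them ELAVL3, MYF5 and gata1a. PSME1 was also higher on control replicates 1 and 3 (9.52 and 9.60) than on 2 and 4 (8.55 and 7.03). The cause of this spread was not tested. Of the 16, 1 passed, gata1a, an erythroid transcription factor gene, which fell in sema6A morphants (−1.59 ± 0.33, limma adjusted p = 0.0103). Of all rows 1.13 percent passed as lower there. In plexinA2 morphants gata1a differed by −0.47 ± 0.33 (adjusted p = 0.483). The median difference of the 16 was −0.50 in sema6A morphants and 0.12 in plexinA2 morphants, beside 0.06 and 0.04 over all rows. In sema6A minus plexinA2 morphants it was −0.61, beside 0.004 over all rows. Only 2 of the 16 means were higher in sema6A morphants than in controls, and 1 higher than in plexinA2 morphants.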

How the data were processed

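The authors deposited 1 table of RMA values on a linear intensity scale, 1 row per Ensembl gene identifier and 1 column per array, from 1-colour (Cy3) NimbleGen 385K arrays. The submitters' processing notes name RMA and no version of it. RMA brings all arrays to a common overall level, which hides any change shared by all genes. The genome build and the choice of rows are not given in the sources used here. Values ran from 26.3 to 42222, with array medians of 608 to 708, and the number of arrays limits their precision.

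Values were taken to log2 with no pseudocount and no filter, and the limma package 3.58.1 (R 4.3.3) fitted lmFit and eBayes models to them (all 12 arrays, group as the only term, 9 residual degrees of freedom). Tests were two-sided, with Benjamini-Hochberg adjustment over 5134 rows. The fit was tested on simulated data. Symbols came from a gene name table that matched 4349 rows, and upper-case symbols do not tell paralogues apart. Lists held 390 names, of which 343 matched that table exactly, by case or without a trailing letter.

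Members and lists were chosen with earlier results of these data known. Named were the 5 genes, up to 4 genes of smallest p per list and comparison, and the 3 nearest named profiles per gene; other list genes named were chosen after their values were seen, and 2 genes that this rule gives are not reported here. Alternatives included a block for replicate number, only the compared groups, dim rows left out, quantile normalisation, a pseudocount of 100, trended robust variances, array weights and each array left out. Leaving out control replicate 2 and sema6A replicate 1 together was added after seeing the data.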

Additional observations from a re-analysis of the deposited data

Results flagged for a closer look

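PSMB2, a core proteasome gene, met 3 marks for a closer look. Within sema6A morphants, replicate 1 (10.31) stood apart from the other 3 arrays (11.47 to 11.58), its gap to the nearest taking 0.916 of the group's range. Within plexinA2 morphants, replicate 1 (13.70) stood above the other 3 (13.22 to 13.30), with a gap of 0.831 of the range. Chance gives such a mark in about 1 of 20 groups. Gaps were looked for in every group of the 5 genes and of PSMB2, tap2t, tnfrsf9a, nfkbiaa, isg20 and uba7. Among so many groups a few such gaps can arise by chance, so nothing is read from them. PSMB2 differed between the 2 morphant groups in the direct comparison, sema6A minus plexinA2 morphants, by −2.15 ± 0.31 on the log2 scale (limma adjusted p = 0.00234, lower in 4 of 4 sema6A arrays). None of the 5 antigen presentation and immunoproteasome genes met any of these marks.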

How the results depend on the processing

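Over 20 alternatives, 292 of 294 values of the 15 differences of b2m, PSMB8, PSME1, PSME2 and cd40 kept their direction. Those that did not were PSME1 in plexinA2 morphants minus control, at −0.29 with array weights and −0.12 without control replicate 4. Many of the values could not move, so much of this count was fixed in advance. The replicate block, only the compared groups, dim rows left out and trended robust variances leave a difference of group means unchanged. So does leaving out an array of a group that is not in the comparison. PSMB8 and PSME2 have no value where the dimmest 25 percent of rows were left out. By more than the residual SD moved, with a pseudocount of 100, PSME2 in sema6A (0.58) and plexinA2 morphants (1.22) and PSMB8 in plexinA2 morphants (0.84, no longer passing), with array weights cd40 in sema6A morphants (2.29), and without control replicate 2 and sema6A replicate 1 b2m in sema6A morphants (2.06). The b2m difference in sema6A morphants passed in 5 of 20 alternatives, the replicate block among them, and cd40 in sema6A morphants lost its call when only the 2 groups were fitted. Between the morphants, cd40 passed in 4 of 20 alternatives, PSME1 in 2 of 20 and b2m, PSMB8 and PSME2 with array weights alone. The uba7 call in plexinA2 morphants was lost in 12 of 19, the replicate block among them (limma adjusted p = 0.061). Correlations of deviations between same-numbered arrays ran from −0.24 to 0.36. Differently numbered arrays were not set beside them, so whether the replicate numbers pair the arrays was not settled. The block gave 144 calls between the morphants, against 88.

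Calls over all rows in sema6A morphants were 160, and 47 with only the 2 groups and 1407 with array weights (66 to 226 without 1 array). In plexinA2 morphants they were 147, and 1629 with array weights and 275 without both unlike arrays (79 to 326 without 1 array). Between the morphants they were 743 with only the 2 groups, 158 with quantile normalisation, 153 with the pseudocount, 2273 with array weights and 880 without both unlike arrays (6 to 495 without 1 array). Of the 37 pathway rows, those called in sema6A morphants were 4 with the pseudocount and 16 with array weights (2 to 4 without 1 array). In plexinA2 morphants they were 2 without dim rows or with the pseudocount, 20 with array weights and 9 without both unlike arrays (2 to 6 without 1 array). Between the morphants they were 21 with array weights and 9 without both unlike arrays. The causes were not tested. Signal over background is not known for these rows.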
